A study of Drosophila melanogaster with 6 samples.

Results

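The 7 genes of the vitelline membrane described here were taken by their FlyBase identifiers in the RNA-Seq data of Drosophila melanogaster follicle cells: Vm26Aa (FBgn0003979), Vm26Ab (FBgn0003980), Vm26Ac (FBgn0086266), Vm32E (FBgn0014076), Vm34Ca (FBgn0003983), Vml (FBgn0085362) and dec-1 (FBgn0000427). They are 7 of the 17493 genes of the matrix. The identifier first listed for Vm26Ac, FBgn0086264, had no row, so this gene was taken by its symbol, and the other 6 were matched by identifier. All 7 had high values in every library and passed the filter on low values in every comparison.

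Human AKT1 was expressed in the somatic cells of the ovary with the driver TJ-Gal4, which follows the gene traffic jam, and all 6 groups carried this driver. LP carried the empty landing pad and no AKT1, WT carried wild-type AKT1, T1, T15 and T5 each carried an AKT1 with a tandem duplication in the pleckstrin homology domain, and Q79K-W80R carried AKT1 with a pair of amino acid substitutions (labelled W80R-Q79K). All AKT1 transgenes carried a FLAG tag and were inserted at the same landing site. Each group had 3 libraries, each from the follicle cells of 30 pairs of ovaries of 1 cross, 18 libraries in all. The cells were freed with trypsin and collagenase and passed through a mesh without a described sort, and no age was found for the females.

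The vitelline membrane is the inner layer of the Drosophila eggshell. Follicle cells secrete its proteins toward the oocyte in mid-oogenesis as separate bodies, which fuse into a continuous layer and are then crosslinked, and the same cells go on to secrete the chorion outside it. The genes of the Vm family encode small secreted proteins that share a hydrophobic vitelline membrane domain, and their transcription in follicle cells is brief, strong and tied to developmental stage. The membrane also holds cues for the axes of the embryo.

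The values are normalized counts, that is, estimated read counts divided by a size factor for each library, and they summed to between 23572559 and 34164960 per library. The second WT library stood apart by its mitochondrial transcripts, which made up 22.1% of its total against 2.77% to 12.4% in the other 17, and by the summed level of 8 muscle genes, 12471 against at most 6035 elsewhere. T1 was the least uniform group. The follicle cell markers tj, Fas3, eya, cas and slbo were above 0 in all groups, with a summed level of 18139 to 28340, and 6 germline markers summed to between 8346 and 28200, so that RNA of the germline was present in every group. Markers of hemocytes summed to at most 257 and those of the fat body to at most 410, and 5 of 6 midgut markers were at 0 in Q79K-W80R while the midgut sum reached 3560 in WT.

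The 7 genes were among the most abundant transcripts of the preparation. Together they made up between 2.19% and 11.2% of a library. By mean normalized count over the 18 libraries Vm26Aa ranked 2, dec-1 ranked 5, Vm34Ca ranked 6, Vm26Ab ranked 7, Vml ranked 18, Vm32E ranked 49 and Vm26Ac ranked 334 among all genes. Per kilobase of the longest annotated transcript, the mean normalized count over the 18 libraries was 756068 for Vm34Ca, 667501 for Vm26Aa, 567934 for Vm26Ab, 124192 for Vm32E, 68734 for dec-1, 49292 for Vml and 16189 for Vm26Ac. On this scale 3 structural genes stood well above the other members, and Vm26Ac was the lowest.

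In the annotation of assembly BDGP6, the 3 Vm26A genes lie next to each other on chromosome arm 2L with psd (palisade, another vitelline membrane protein), in the order Vm26Ab, Vm26Ac, Vm26Aa, psd and with no other annotated gene between them. Vm26Ab is on the plus strand and the other 3 are on the minus strand. Vm32E and Vm34Ca lie elsewhere on 2L, and Vml and dec-1 are on X. Of the 7 members, 6 have 1 exon, in longest transcripts of 491 bases (Vm34Ca) to 1960 bases (Vml), whereas dec-1 has 4 exons in its longest transcript of 5696 bases.

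**Figure D1:**
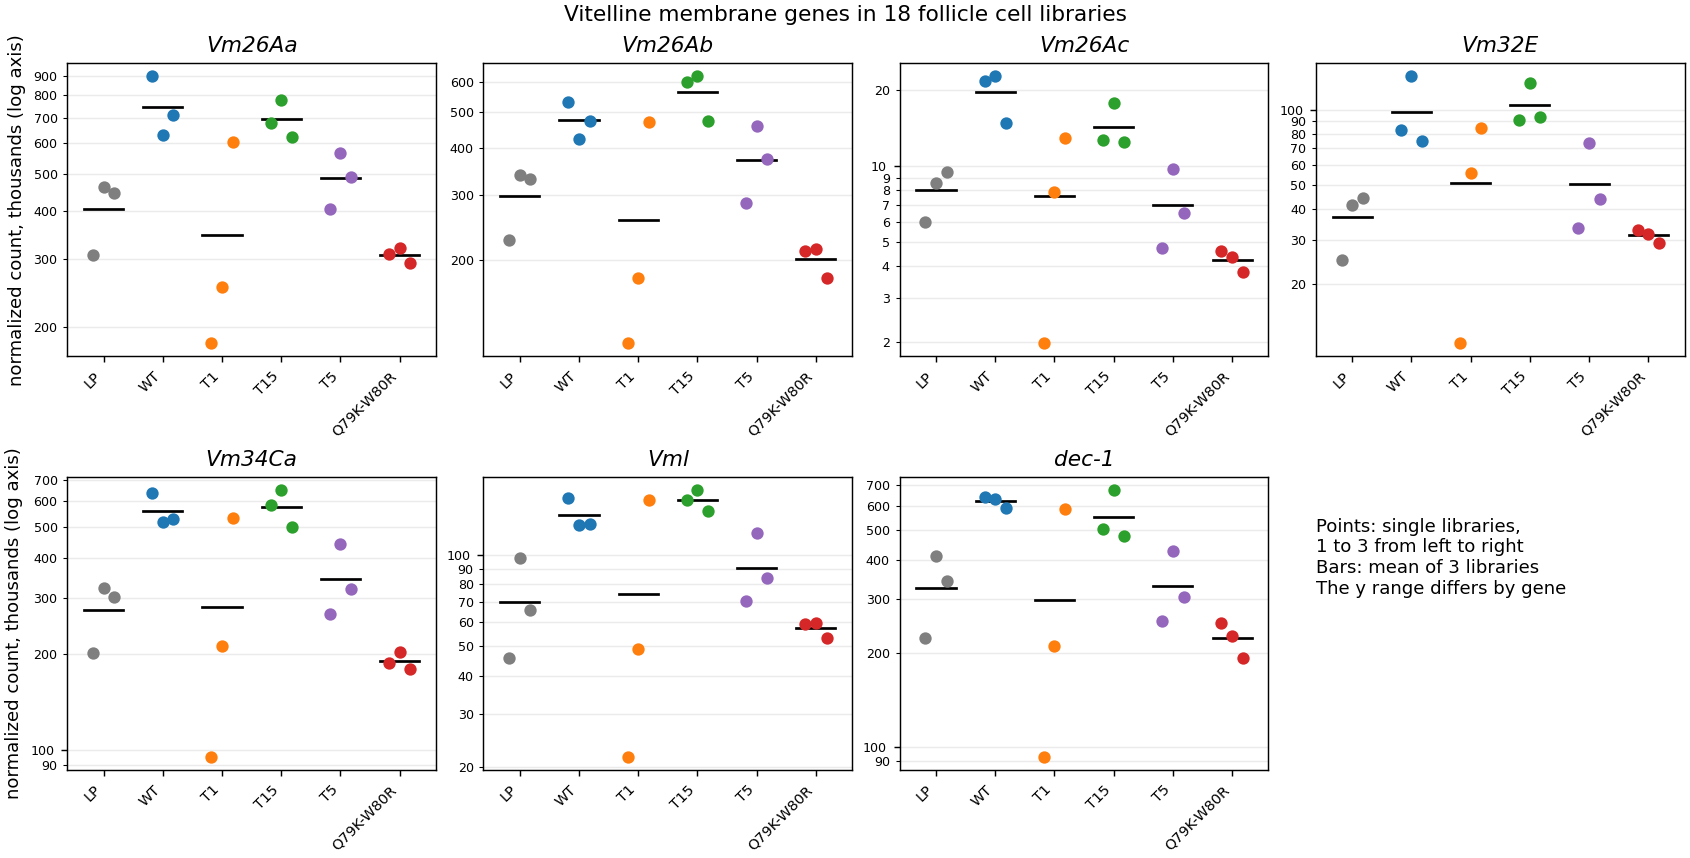
Normalized count in units of 1000 (log axis, range set for each gene) of each vitelline membrane gene in the 18 libraries, with 3 points per group and a bar at the group mean. The 3 Q79K-W80R libraries lie below all WT libraries for every gene, and the T1 points spread the widest, from 92783 to 587344 for dec-1.

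Vm26Aa encodes a major structural protein of the membrane. Its normalized counts in libraries 1, 2 and 3 were 307256, 460900 and 444330 in LP and 896383, 630079 and 710036 in WT. With the duplications, they were 181250, 254266 and 603212 in T1, 675973, 779158 and 624752 in T15, and 405044, 566466 and 490521 in T5, and with the substitutions 308763, 319999 and 292803 in Q79K-W80R. All WT libraries were above all LP libraries, T15 lay within the range of WT or just below it, and all libraries of T1, T5 and Q79K-W80R were below all of WT, with the third T1 library below by a narrow margin. By group mean the order was WT, T15, T5, LP, T1 and Q79K-W80R, and only between T15 and T5 did neighbours not overlap.

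Vm26Ab encodes a further major structural protein, needed for the integrity of the membrane. Its normalized counts were 226872, 337389 and 329200 in LP and 530370, 422257 and 472975 in WT. They were 120155, 179812 and 468785 in T1, 601253, 621019 and 471296 in T15, 285332, 456515 and 372479 in T5 and 211861, 214821 and 179314 in Q79K-W80R. Here T15 had the highest mean and overlapped WT, the second library of T5 reached into the range of WT, and Q79K-W80R was below every LP, WT, T15 and T5 library.

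Vm34Ca, the third abundant structural gene, gave 201681, 322924 and 301935 in LP and 638916, 515823 and 529333 in WT. The counts were 95547, 211287 and 534000 in T1, 582953, 651683 and 498352 in T15, 266948, 442161 and 319514 in T5, and 187126, 202983 and 178965 in Q79K-W80R. The WT and T15 libraries intermixed, the third T1 library lay among them, and the first T1 library was the lowest of all 18.

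Vm32E encodes a protein known to be in both the vitelline membrane and the endochorion, the inner part of the chorion. Its normalized counts were 25097, 41709 and 44369 in LP, 82933, 136175 and 75061 in WT and 11619, 56020 and 84611 in T1. They were 90903, 127556 and 93875 in T15, 33586, 73752 and 44016 in T5 and 33011, 31824 and 29375 in Q79K-W80R. The second library was the highest in both WT and T15, and Q79K-W80R was within the range of LP.

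Vm26Ac, the least abundant member, lies between Vm26Ab and Vm26Aa on 2L. It was at 5992, 8549 and 9505 in LP and 21726, 22682 and 14800 in WT. It was at 1984, 7856 and 12960 in T1, 12740, 17749 and 12422 in T15, 4736, 9721 and 6523 in T5 and 4589, 4361 and 3810 in Q79K-W80R. Unlike the structural genes above, Vm26Ac had a T5 mean (6994 ± 2526, SD, n = 3) below its LP mean (8016 ± 1816, SD, n = 3), and these groups overlapped. Its highest group mean was 4.64 times its lowest, against 2.43 to 3.32 times for the other 6.

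Vml encodes a vitelline membrane protein that carries a cue for the dorsoventral axis of the embryo. The normalized counts were 45749, 98020 and 65894 in LP, 153545, 125754 and 126261 in WT and 21682, 49180 and 152280 in T1. The other groups had 152262, 163720 and 139677 in T15, 70365, 118363 and 83698 in T5 and 59357, 59855 and 53357 in Q79K-W80R. The third T1 library was 7.02 times the first by this gene and lay within the WT range.

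The product of dec-1 is secreted with the vitelline membrane proteins and cleaved, and its fragments take part in the assembly of the eggshell, including the endochorion. Its normalized counts were 223517, 412072 and 342003 in LP, 637991, 632488 and 588204 in WT and 92783, 211591 and 587344 in T1. They were 505972, 674007 and 478961 in T15, 253886, 429561 and 304961 in T5, and 251174, 226844 and 193829 in Q79K-W80R. The WT libraries were close together (SD 4.41% of the mean) and those of T1 far apart (SD 86.9% of the mean).

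The first comparison asks what wild-type AKT1 changed against the empty landing pad. All 7 genes were higher in every WT library than in every LP library, a pattern that 12% of the 9073 genes tested showed in this direction. The Log2FC (WT minus LP) was between 0.69 for Vm26Ab and 1.40 for Vm32E, with SE of 0.22 to 0.33, and the median was 1.01 against 0.01 over all genes tested; quantile normalization turned Vm26Ab to -0.12. By limma with Benjamini-Hochberg adjustment over all genes, 0 of the 7 passed an adjusted p of 0.05 with a change of at least 1.5-fold, where 0.353% of all genes were called higher, although all 7 had an unadjusted p under 0.05. The lowest adjusted p was that of Vm26Ac, 0.0634, and without WT library 3 this gene alone was called (adjusted p = 0.041 by limma). The 8 muscle markers, of which Act57B, Prm, Mhc and Mlc2 were the most abundant, had a Log2FC of 0.82 to 1.44 (median 1.01), with 0 called and 3 at an unadjusted p under 0.05; without WT library 2 the median of the 7 vitelline membrane genes was 1.06, and the part of muscle RNA was not tested further.

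Q79K-W80R showed the clearest difference by calls. Its 3 libraries lay close together, with an SD of 4.45% (Vm26Aa) to 12.9% (dec-1) of the mean. In T1 the SD was 65.1% (Vm26Aa) to 92.6% (Vml) of the mean. The median Log2FC against WT was -1.48 in Q79K-W80R and -1.31 in T1, where 0 of 7 genes were called. The calls thus depend on the small spread as well as on the size of the change. Each of the 7 genes fell against WT, with a Log2FC of -1.23 for Vml, -1.23 for Vm26Ab, -1.26 for Vm26Aa, -1.48 for dec-1, -1.56 for Vm34Ca, -1.59 for Vm32E and -2.19 for Vm26Ac, and SE of 0.13 to 0.22; quantile normalization, which gives equal ranks equal values, left 3 calls and turned Vm26Ab to 0.072. In fold terms, WT was 2.34 times Q79K-W80R for Vml and 4.57 times for Vm26Ac. All 7 were called by limma, with adjusted p from 0.000273 (Vm26Ac) to 0.00427 (Vm26Aa), where 6.33% of 9047 genes were called lower, and in all 7 the groups were apart, as in 20.7% of genes in this direction. The 7 calls were kept without any 1 of the 6 libraries, the second WT library included, for which the Log2FC was between -2.08 and -1.28.

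Markers moved beside this fall. Of 5 follicle cell markers, 2 were called lower and 1 higher. Beside these and the muscle and germline counts below, 6.33% of all genes were called lower and 8.8% higher. The gene tj, a transcription factor of follicle cells whose regulation also underlies the driver, was at 8956 ± 483 in Q79K-W80R and 18203 ± 760 in WT (SD, n = 3 each), and it fell by 1.02 ± 0.08 (SE) on the log2 scale (adjusted p = 0.000269 by limma). Fas3, an adhesion protein strongest in young follicle cells, rose by 0.77 ± 0.17 (adjusted p = 0.0175 by limma), and slbo, a factor of border cells and late follicle cells named after its values were seen, fell (Log2FC -1.51). Of 8 muscle markers 3 were called lower, with a median Log2FC of -1.50 and a sum of 2246 to 2259 in Q79K-W80R against 3122 to 12471 in WT. Of 6 germline markers 1 was called lower, and the germline sum was 17406 to 21932 in Q79K-W80R and 12110 to 28200 in WT. The midgut sum was at most 4.28 in Q79K-W80R and between 2.56 and 3560 in WT. Relative to tj within a library, the mean log2 level of the 7 genes was 3.15 ± 0.06 in Q79K-W80R, 3.63 ± 0.19 in WT and 2.60 ± 0.32 in LP (SD, n = 3 each). Without that division the means were 16.28, 17.78 and 16.74, so that Q79K-W80R lay below LP by the counts and above LP relative to tj. This order is given for tj only, which was itself lower in Q79K-W80R than in LP, and no other marker was used as divisor. In Q79K-W80R, eya (3520 to 4312, against 3413 to 3699 in LP) was not lower than in LP. The marker cas (711 to 782, against 444 to 519) was higher in every Q79K-W80R library than in every LP library. Fas3 was higher than in LP and slbo lower. In WT against LP, tj was not called (Log2FC 0.0087 ± 0.12, SE). In bulk samples such as these, fewer cells of a type or stage and less RNA per cell cannot be told apart. The part of these markers in the fall of the 7 genes was not tested.

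Against LP, Q79K-W80R was less far away. Only Vm26Ac of the 7 genes was called lower (Log2FC -0.89 ± 0.16, SE; adjusted p = 0.00387 by limma), where 5.18% of 9073 genes were. Vm26Ab was also below all LP libraries (-0.54 ± 0.22, adjusted p = 0.0938 by limma), so that 2 of 7 were apart, beside 23.6% of all genes. The other 5 overlapped LP, with Log2FC between -0.51 and -0.20, and quantile normalization turned Vm34Ca and dec-1 to slightly above 0. The count rose to 4 without LP library 1, which had the lowest level of all 7 genes in its group, and was 0 when all 18 libraries were fitted together. Of the follicle cell markers 2 were called higher and 2 lower against LP, tj (Log2FC -1.02) among the latter. Of all 9073 genes tested, 944 were called higher and 470 lower. All 5 midgut markers tested were called lower, with a sum of 1.58 to 4.28 against 798 to 3308 in LP, as were 2 of 8 muscle markers and the 1 fat body marker tested, and the part of these was not tested.

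**Figure D2:**
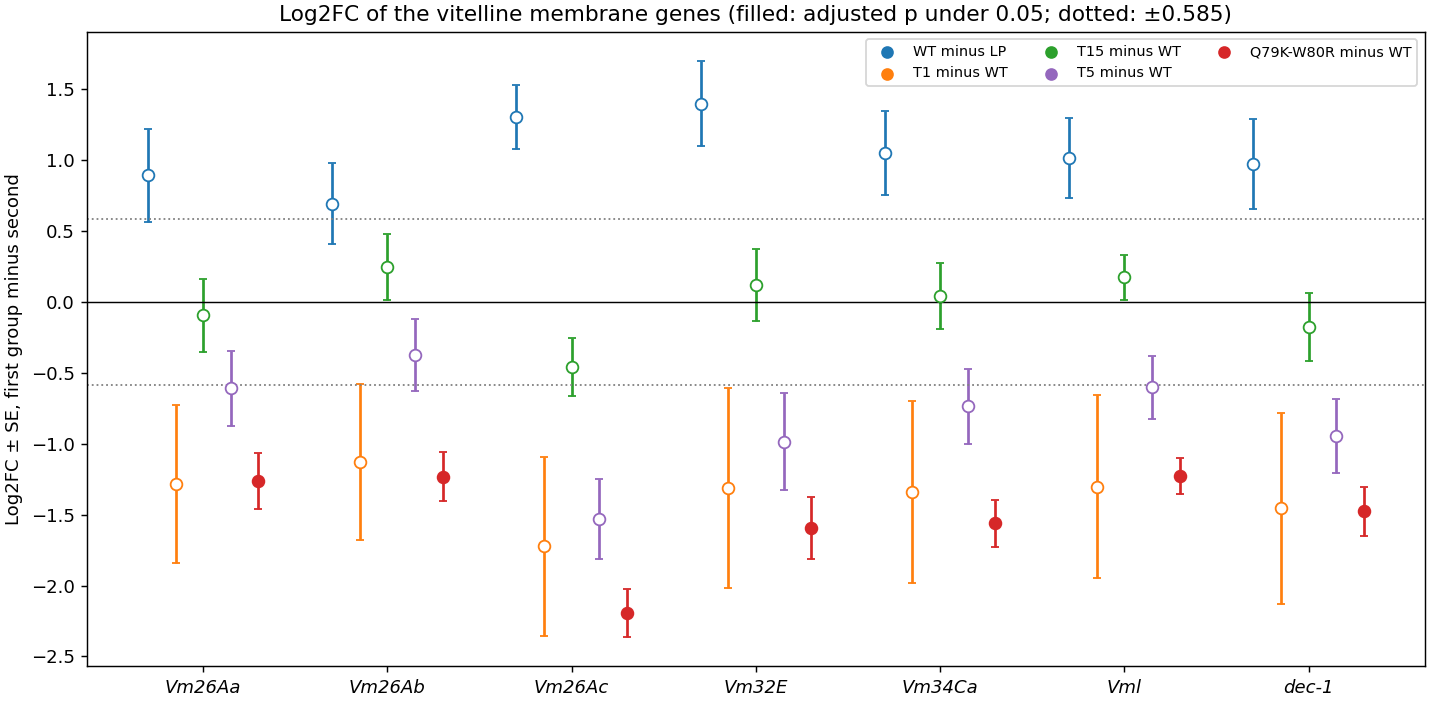
Log2FC (first group minus second, points) with SE (bars) of the 7 genes in the comparison of WT with LP and of each mutant form with WT, from limma on log2(normalized count + 1); filled points passed an adjusted p of 0.05. Only the Q79K-W80R points are filled, between -2.19 and -1.23, and the T15 points lie between -0.46 and 0.24; after quantile normalization Vm26Ab changed sign in WT against LP and in T5 and Q79K-W80R against WT.

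T15 did not separate from WT by any of the 7 genes. Its Log2FC against WT was between -0.46 (Vm26Ac) and 0.24 (Vm26Ab), with SE of 0.16 to 0.26. By limma 0 of the 7 were called, 0 had an unadjusted p under 0.05, no gene had groups apart, and 0.236% of 8890 genes were called higher. A test that misses the threshold does not show that T15 and WT were equal in these genes.

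Against LP, T15 behaved as WT did in direction. All 7 genes were higher in every T15 library than in every LP library, as were 22.3% of 8899 genes, and 5 were called higher by limma, where 4.2% of genes were. The called genes were Vm32E (Log2FC 1.52 ± 0.24, SE; adjusted p = 0.00842), Vml (1.19 ± 0.26, 0.0216), Vm26Ac (0.84 ± 0.20, 0.0253), Vm34Ca (1.09 ± 0.27, 0.0301) and Vm26Ab (0.93 ± 0.27, 0.0433). Vm26Aa (0.80 ± 0.28, 0.078) and dec-1 (0.79 ± 0.31, 0.0967) were not called. This count depended on single libraries: it was 1 without LP library 1, T15 library 1 or T15 library 2, 2 without LP library 3 and 7 without LP library 2, and Vm32E was called under every one of these. It was also 0 with all 18 libraries in 1 fit and 3 with the library number as a block. T15 and WT share the LP libraries in these comparisons. Of 5 midgut markers tested all 5 were called lower in T15 than in LP, with a sum of 0 to 59.5 against 798 to 3308, as were 2 of 6 germline markers, 1 of 8 muscle markers and 1 of 2 hemocyte markers tested, where 4.06% of all genes were called lower, and the part of these was not tested.

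T1 could not be described by its mean. Its first library was the lowest of all 18 for each of the 7 genes, the second was below every WT library for each gene, and the third lay near or within the range of WT. Against WT the Log2FC was between -1.72 (Vm26Ac) and -1.13 (Vm26Ab), but with SE of 0.55 to 0.71, and 0 of 7 genes were called by limma, where 0% of 9175 genes were called lower. Only Vm26Ac of the 7 had an unadjusted p under 0.05. The genes Vm26Aa, Vm26Ac and dec-1 (3 of 7) were below WT in all T1 libraries, beside 5.38% of all genes. Without T1 library 3, 5 genes were called (Vm26Aa, Vm26Ab, Vm34Ca, Vml and dec-1, Log2FC -2.14 to -1.69, adjusted p from 0.0295 to 0.0475 by limma), and with all 18 libraries in 1 fit 2 were. The follicle cell gene tj followed the same division, at 9914 and 9737 in T1 libraries 1 and 2 and 15947 in library 3. Against LP, 0 of 7 T1 genes were called and 0 had an unadjusted p under 0.05, where 0.526% of genes were called lower, and all 7 overlapped.

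T5 lay between WT and Q79K-W80R. Of the 7 genes, 6 were below every WT library in every T5 library, all but Vm26Ab, beside 13.2% of 9102 genes. The Log2FC against WT was -1.53 ± 0.28 for Vm26Ac, -0.99 ± 0.34 for Vm32E, -0.95 ± 0.26 for dec-1, -0.74 ± 0.26 for Vm34Ca, -0.61 ± 0.27 for Vm26Aa, -0.60 ± 0.22 for Vml and -0.38 ± 0.25 for Vm26Ab (SE), which quantile normalization turned to 0.53. By limma 0 of 7 were called, where 0.275% of genes were called lower, and 5 had an unadjusted p under 0.05; Vm26Ac had the lowest adjusted p, 0.0606. Without T5 library 2, which had the highest level of all 7 genes in its group, Vm26Ac was called (adjusted p = 0.0126), and with the library number as a block 2 genes were. Against LP, T5 showed no call and no unadjusted p under 0.05 among the 7 in limma, where 1.99% of genes were called higher. Its Log2FC against LP was between -0.23 (Vm26Ac) and 0.41, and all genes overlapped.

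With the 12 mutant libraries pooled, as the study did, the 7 genes had a Log2FC of -1.48 (Vm26Ac) to -0.62 (Vm26Ab, 0.15 after quantile normalization) against WT, with SE of 0.39 to 0.54. None of the 7 was called by limma, where 1.02% of 9605 genes were called lower, and 2 had an unadjusted p under 0.05. The study tested this pooling with DESeq2 and reported more genes changed than the 222 called by limma here. Its calls for the 7 genes are not given here. The lowest adjusted p was 0.114, for Vm26Ac, which was called with all 18 libraries in 1 fit (adjusted p = 0.0183 by limma). All 7 genes overlapped between the pooled mutants and WT.

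Between mutant forms, 1 of 42 tests (7 genes in 6 pairs) was called. Vm26Ab was lower in Q79K-W80R than in T15 (Log2FC -1.48 ± 0.42, SE; adjusted p = 0.0425 by limma), where 2.33% of 9396 genes were called lower. All 7 genes were apart and lower in Q79K-W80R than in T15 (29.5% of all genes), in T5 than in T15 (20.1%) and in Q79K-W80R than in T5 (17.4%), and all 7 had an unadjusted p under 0.05 for Q79K-W80R against T15. No gene was called in T5 against T15 (0% called lower, 0 of 7 with an unadjusted p under 0.05), in Q79K-W80R against T5 (0.234%, 0 of 7), in T5 against T1 (0.138% called higher, 0 of 7) or in Q79K-W80R against T1 (0.341% called lower, 0 of 7). T15 was above T1 in all libraries for Vm26Aa, Vm26Ab and Vm32E (6.89% of genes), with 0 of 7 called (0.0639% of genes) and 7 of 7 at an unadjusted p under 0.05. The spread of T1 enters each of these tests. Without T1 library 3 the calls rose to 19 of 42, without T1 library 1 they were 7, and without any 1 library of T15 or Q79K-W80R, or T5 library 1 or 3, they were 0.

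Over all 6 groups, a moderated F test in limma gave an adjusted p of 0.0236 for Vm26Ac, 0.0368 for Vm26Ab, 0.0378 for Vm26Aa and 0.0417 for Vm34Ca. Vm32E (0.065), dec-1 (0.0828) and Vml (0.0832) did not pass. Thus 4 of 7 passed, where 21.3% of 9691 genes did. The count was 7 without T1 library 1 or T1 library 3, 4 without T5 library 2, 3 without LP library 2, 2 without WT library 2 or T5 library 1, 1 without LP library 1 or 3, WT library 3, T1 library 2, T5 library 3 or any T15 library, and 0 without WT library 1 or any Q79K-W80R library.

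The 7 genes varied together from library to library. Over the 18 libraries, Pearson's r between the log2 levels of 2 members was 0.87 to 0.98 (median 0.95), and Spearman's rho was 0.84 to 0.97. With the group means removed, r was 0.76 to 0.98. T1 had the widest spread within a group. Its mean log2 level of the 7 genes ran from 15.18 to 17.64, against 16.29 to 17.02 in LP and 16.15 to 16.34 in Q79K-W80R. T1 thus weighs most in the values with the group means removed, and no r was computed without T1. The values over all 18 libraries also hold the differences between group means. All these correlations are descriptions over libraries that share groups and size factors. The least alike pair was Vm26Aa and Vm32E (r = 0.87). Vm26Ac and Vm32E were close to each other once group means were removed (r = 0.98). Vm26Ac was less close to its neighbours on 2L, Vm26Aa (0.84) and Vm26Ab (0.85), and this order was not examined without T1.

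The members also shifted against each other, as the log2 level of each minus the mean of the other 6 in the same library shows. The log2 level of Vm26Ac minus the mean of the other 6 was -4.08, -3.90 and -4.42 in WT and -4.37, -4.61 and -4.31 in LP. In the mutants it was between -5.10 and -4.09 (median -4.85), and it lay below the lowest WT library in 11 of the 12, all but T1 library 2. The mean was -4.96 in T5, -4.93 in Q79K-W80R, -4.64 in T15 and -4.55 in T1, against -4.13 in WT. Vm26Ab and Vml differed from WT the other way. For Vm26Ab the mean was 1.25 in WT, 1.60 in the mutants and 1.66 in LP (1.57 to 1.75). For this gene the mutants were thus near LP, and WT was the group set apart. For Vml the mean was -0.87 in WT, -0.65 in the mutants and -0.83 in LP (-1.05 to -0.51). For each of these genes 10 of the 12 mutant libraries were above all WT libraries. Since each value is set against the other members, a shift of 1 gene enters the values of the rest. For Vm32E the means of WT (-1.46) and the mutants (-1.48) were close, and the same measure was highest in T1 library 2 (-0.78) and WT library 2 (-0.88) and between -1.96 and -1.19 elsewhere. These were the libraries with the highest share of mitochondrial transcripts, 12.4% in T1 library 2 and 22.1% in WT library 2, and the part of that share was not tested. The balance was examined after the values were seen, and no test was made of it.

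**Figure D3:**
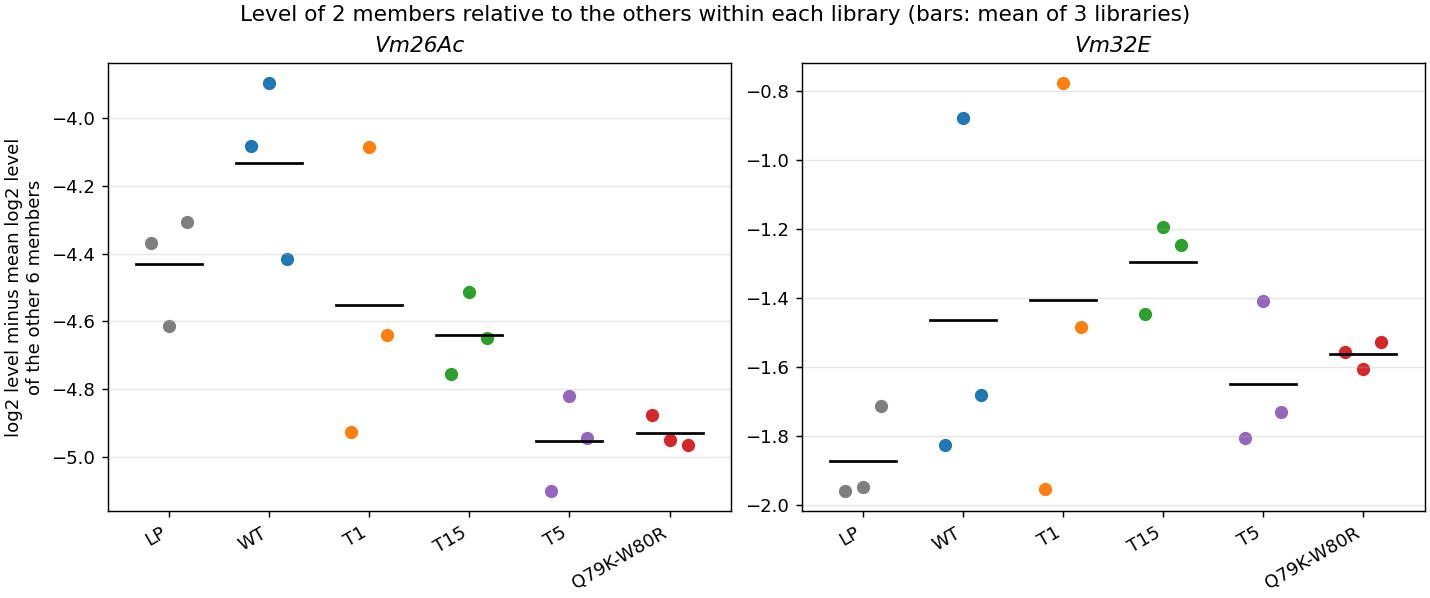
Log2 level of Vm26Ac (left) and Vm32E (right) minus the mean log2 level of the other 6 members in the same library, with 3 points per group and a bar at the mean. Vm26Ac lies lowest in T5 and Q79K-W80R (means -4.96 and -4.93), and Vm32E is highest in the second libraries of WT and T1.

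Of 13 other eggshell genes, 7 were called lower and 0 higher in Q79K-W80R against WT, where 6.33% of all genes were called lower, with a median Log2FC of -0.93 against 0.003 over all genes tested. The called genes were yellow-g (Log2FC -1.78), ndl (a serine protease of the dorsoventral pathway that also acts in eggshell formation, -1.76), Fcp3C (a follicle cell protein gene, -1.64), psd (-1.60), yellow-g2 (-1.46), tsl (a terminal cue made by the follicle cells at the poles, -1.11) and pip (a sulfotransferase of the ventral follicle cells, -0.93). Femcoat (-0.72), Pxt (0.86), fs(1)N (0.35), fs(1)M3 (0.36) and clos (0.47) were not called. Cad99C (a cadherin of follicle cell microvilli, -0.57) was not called either. It missed only the 1.5-fold limit (adjusted p = 0.0021 by limma). In WT against LP, Fcp3C was the only one of the 13 called (Log2FC 1.40 ± 0.20, SE; adjusted p = 0.0406 by limma), and it was also the only one called lower in the 12 mutant libraries against WT (-1.55 ± 0.39, adjusted p = 0.0388 by limma).

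The palisade gene psd, next to the Vm26A cluster, had the pattern closest to the members by Pearson's r. By Spearman's rho, CG2003 (0.99), tyn (0.98) and Tmhs (0.97) were closer than psd (0.96). Its counts were 20762, 37632 and 33081 in LP, 68603, 49157 and 50243 in WT, 9108, 18206 and 49876 in T1, 52553, 58304 and 45624 in T15, 23672, 39895 and 29013 in T5 and 18989, 18346 and 17550 in Q79K-W80R. Its r to the mean of the 7 genes over the 18 libraries was 0.99. The oocyte makes fs(1)N, fs(1)M3 and clos, proteins of the vitelline membrane that act in its crosslinking and in terminal patterning. Their r to the same mean was -0.29, -0.27 and -0.36, and Pxt, a peroxidase-family gene, had -0.34. In T15 against LP, clos (-1.20), fs(1)M3 (-1.18) and Pxt (-1.15) fell while psd (0.81) rose. The germline marker osk, which localizes to the posterior of the oocyte, also fell in that comparison (-1.15, adjusted p = 0.0341 by limma), with 2 of 6 germline markers called lower. The part of germline RNA in these values was not tested.

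**Figure D4:**
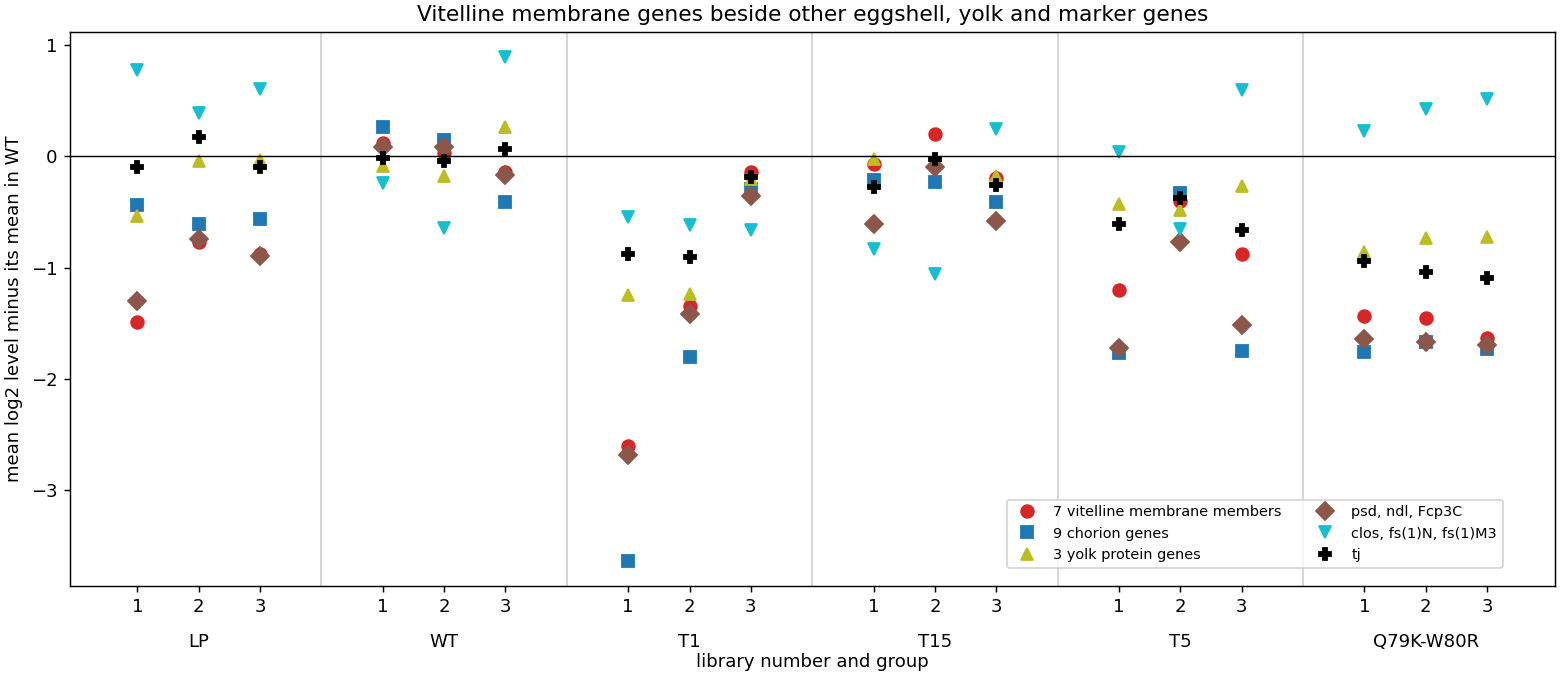
Mean log2 level in each of the 18 libraries, minus the WT mean, of the 7 vitelline membrane genes, the chorion and yolk protein genes, 3 follicle cell eggshell genes (psd, ndl, Fcp3C), 3 oocyte-made eggshell genes (clos, fs(1)N, fs(1)M3) and tj. The vitelline membrane points broadly follow the mean of psd, ndl and Fcp3C but lie above it in every T15 and T5 library. In T15 they are at -0.07, 0.20 and -0.20, against -0.61, -0.10 and -0.58. By gene, the mean counts in T15 and WT were 3722 and 7171 for Fcp3C, 52160 and 56001 for psd, and 50144 and 58649 for ndl. The oocyte-made genes lie above 0 in all LP and Q79K-W80R libraries and spread from -0.65 to 0.89 within WT.

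Chorion genes, which the same cells express after the vitelline membrane genes, were all 9 called lower in Q79K-W80R against WT, where 6.33% of all genes were, with a median Log2FC of -1.74. Of the 4 with the highest levels, the Log2FC was -2.15 for Cp18, -1.74 for Cp38, -1.68 for Cp36 and -0.80 for Cp15. In WT against LP, 0 of 9 were called by limma, 4 had an unadjusted p under 0.05, and the median Log2FC was 0.51 where that of the 7 vitelline membrane genes was 1.01. Among the yolk protein genes, whose products follicle cells and fat body supply to the oocyte, Yp1 (-0.65) and Yp3 (-1.16) fell in Q79K-W80R and Yp2 (-0.52) was not called. None of the 3 was called in WT against LP in limma, where 0 had an unadjusted p under 0.05 and the Log2FC was 0.11 to 0.26.

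Of 11 regulators of follicle cell maturation, 5 were called lower in Q79K-W80R against WT, where 6.33% of all genes were, and 1 was called higher, a share near the 8.8% of all genes called higher. The median Log2FC was -0.35. Among the 4 with the highest levels, ttk (a transcription factor that acts late in follicle cell development, -1.19) and br (an ecdysone-response factor, -0.78) fell, and tai (a coactivator of the ecdysone receptor, -0.35) and peb (0.41) were not called. Named after their values were seen, Cyp18a1, which encodes an ecdysone-inactivating enzyme, was the 1 called higher (1.65), and ftz-f1, a nuclear receptor, fell (Log2FC -1.16). In T15 against LP, 0 of the 11 were called by limma and 0 had an unadjusted p under 0.05.

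The 8 genes most like the members, by r over the 18 libraries to the mean of the 7 log2 levels, were psd (0.99), CG2003 (0.98), tyn (0.98), Tmhs (0.97), p24-1 (0.97), KdelR (0.97), jagn (0.97) and ergic53 (0.97). Of 7662 genes with a symbol and a mean of at least 50, 138 (1.80%) had an r above 0.9, and the median r was 0.02. Of the 8, tyn encodes a zona pellucida domain protein, and p24-1, KdelR, jagn and ergic53 encode proteins of the endoplasmic reticulum or of the traffic between it and the Golgi. Levels in tyn were 2580 in WT, 2561 in T15, 1464 in T5, 1484 in LP, 1181 in T1 and 725 in Q79K-W80R (group means). Their Log2FC in Q79K-W80R against WT was between -1.82 (tyn) and -0.66 (p24-1) and in WT against LP between 0.36 (jagn) and 0.90 (psd). These differences follow in large part from the choice of the genes by their likeness over the same libraries and are given as a description.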

How the data were processed

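The authors aligned stranded mRNA reads with Bowtie, estimated counts per gene with RSEM 1.3.1 and, per the paper, used DESeq2. The deposited values, a signal in the terms used here, are normalized counts in 1 matrix of 18 libraries. They are not whole reads, so no count model was fitted, and totals of 23572559 to 34164960 set only an approximate precision. The build is not given in the sources used here. Symbols, arms, exons and transcript lengths come from assembly BDGP6; near-identical copies were not checked, and no sequence was used.

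Columns were assigned by cross name. The third Q79K-W80R column shares its cross name, but that sample's label names only 2 libraries.

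The filter kept genes that reached 10 in 3 or more libraries for limma 3.58.1 (R 4.3.3, trend) on log2(value + 1), with the 2 groups compared, the 4 mutant groups, or all 6 for the F test. Fold changes are on that scale. Benjamini-Hochberg adjustment ran over all genes tested, and calls were made at 0.05 with at least a 1.5-fold change either way. The procedure was tested on simulated data.

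Named genes were the 7 members, the 8 genes most like them (mean of at least 50 and a symbol), all other eggshell genes and up to 4 genes with the highest mean from each other list. The members and lists were chosen with earlier results of these data known. Alternatives were the pseudocount (0.5, 5), the filter (none, mean of at least 50), the scaling (TMM, equal totals, quantile), no trend, all 18 libraries in 1 fit, the library number as a block and leaving out each library. Python 3.11.15 and matplotlib 3.10.9 served for the rest. T15 and WT libraries of the same number deviated together (r of 0.15, 0.17 and 0.12 over genes) and blocking left T15 against WT at 0 calls; no other pair of groups did.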

Additional observations from a re-analysis of the deposited data

How the results depend on the processing

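The 7 calls in Q79K-W80R against WT were kept under all alternatives but 2: quantile normalization left 3 and all 18 libraries in 1 fit left 6 (Vml at an adjusted p of 0.0815 by limma, Log2FC -1.23). Quantile normalization gives the top ranks of all libraries the same values by construction, and these genes are among the top ranks: the Log2FC of Vm26Ab turned to 0.072 there, to -0.12 in WT against LP, to 0.53 in T5 against WT and to 0.15 in the 12 mutant libraries against WT. Counts elsewhere moved as follows. Without a filter on low values, WT against LP had 1 call, T15 against LP 3, the pairs of mutants 0 and the F test 1. With a mean of at least 50 the pairs had 3, and with no trend 0. Equal library totals gave 1 call in T5 against WT, 3 in the pairs and 1 in the F test, and quantile normalization gave 0 in the pairs and 1 in the F test. All 18 libraries in 1 fit gave 1 in the pooled mutants against WT, 2 in T1 against WT, 0 in T15 against LP, 0 in Q79K-W80R against LP and 5 in the pairs. Leaving out 1 library gave 0 to 1 in WT against LP, 0 to 5 in T1 against WT, 0 to 1 in T5 against WT, 1 to 7 in T15 against LP, 1 to 4 in Q79K-W80R against LP, 0 to 19 in the pairs and 0 to 7 in the F test, and did not change the 7 of Q79K-W80R against WT. Apart from T15 and WT, same-numbered libraries share only a number; the replicate block gave 2 calls in T5 against WT, 3 in T15 against LP and 3 in the pairs, and no other count of members changed by more than 1.5 times. The cause of these differences was not tested. With equal library totals the median Log2FC of all genes, close to 0 in each comparison before, was 0.28 in Q79K-W80R against WT, where the split of all calls went from 796 higher and 573 lower to 1500 and 347; -0.18 in WT against LP (32 and 6 to 14 and 8), 0.17 in the pooled mutants (124 and 98 to 291 and 86), 0.25 in T5 against WT (40 and 25 to 211 and 21) and -0.15 in T15 against LP (374 and 361 to 233 and 687). Under that scaling the members were between -1.92 and -0.95 in Q79K-W80R against WT and between 0.50 and 1.21 in WT against LP. With 3 libraries a group, SE of up to 0.71 in T1 against WT limit what can be called.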
